A study of Anguilla anguilla with 3 samples.

Results

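The TRIM (tripartite motif) family of the European eel (Anguilla anguilla) was followed in ovary RNA from 3 female life stages. Members were the predicted genes whose best protein match is a33 or a numbered TRIM protein, or whose description names a tripartite motif protein or a TRIM protein ligase. This gave 143 rows of 45974, of which 136 were found by name and 7 by description alone. The libraries came from a yellow eel, the resident growing stage, from Lake Veerse, dated April 2010, a prepubertal silver eel, the stage that leaves for the sea, from Lake Grevelingen, dated December 2008, and a matured eel that had spawned, from Lake Veerse, dated May 2010. Each stage is 1 animal, with 3 parts of its gonad pooled, and the labels give no genotype or age, and not how the last eel was matured. The silver stage therefore cannot be told apart from lake, year or season. The yellow and matured eels share lake and year, but no stage can be told apart from the individual. No test was made, and every difference below is one between these 3 libraries.

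TRIM proteins carry a RING finger, one or more B-boxes and a coiled coil, and most act as E3 ubiquitin ligases, the enzymes that choose which protein is tagged with ubiquitin. Their C-terminal part sets the target: a B30.2 (SPRY) domain in many immune members, NHL repeats in RNA-binding and neuronal members, a COS box in members that bind microtubules, and a PHD finger with a bromodomain in members that act on chromatin. In fishes the B30.2 branch has expanded into many copies. Members with known roles in eggs include LIN-41, the nematode relative of TRIM71, which controls oocyte maturation, TRIM36, which acts in the vegetal cortex of frog eggs, and A33, a nuclear protein of newt oocytes found on lampbrush chromosomes.

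Library totals ran from 27811764 to 41426808 reads, and 97.9% to 98.2% of them aligned uniquely. Levels are given as CPM, the reads of a gene scaled to library depth, with depth corrected by TMM factors. Egg coat and other oocyte genes marked the tissue as ovary, since all 26 rows of the oocyte list had reads in every library, with sums of 58152, 46941 and 39121 CPM (yellow, silver, matured). Leukocyte markers summed to 10.6, 30.5 and 157 CPM over 31 rows and smooth muscle markers to 37.02, 38.9 and 232 CPM over 19 rows. Ovarian somatic markers summed to 16.9, 48.3 and 97.9 CPM over 13 rows, so these lists were highest in the matured library. Erythrocyte markers, at 4.28, 15.5 and 12.5 CPM over 3 rows, were highest in the silver one. Each of these sums was also higher in silver than in yellow, that of smooth muscle only slightly. The defining leukocyte gene ptprc (g6670) stood at 1.13, 2.23 and 13.3 CPM. In bulk tissue, fewer cells of a type and less RNA per cell cannot be told apart.

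The family took a small and similar part of each library. Its rows held 0.131% of the reads of the yellow library (95% Clopper-Pearson interval 0.130% to 0.133%), 0.150% of the silver library (0.149% to 0.151%) and 0.130% of the matured library (0.129% to 0.132%). On the CPM scale the sums were 1373, 1649 and 1135, highest in the silver library and lowest in the matured one. All intervals here cover counting error only, because PCR copies of a molecule are counted as separate reads.

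A few rows carried most of this signal. The row tri35 (g8918), whose best match is human TRIM35, an E3 ligase tied to cell death and innate immunity in mammals, was the most abundant member in each library, at 315, 405 and 205 CPM. It alone gave 22.9%, 24.5% and 18.1% of the family sum, and the 10 most abundant rows of a library gave 77.7%, 72.7% and 67.0%. At the other end, 13 rows had no reads in any library and 64 had reads but a mean under 1 CPM over the 3 libraries. The remaining 66 rows passed that filter, and ratios between libraries are described for them.

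**Figure D1:**
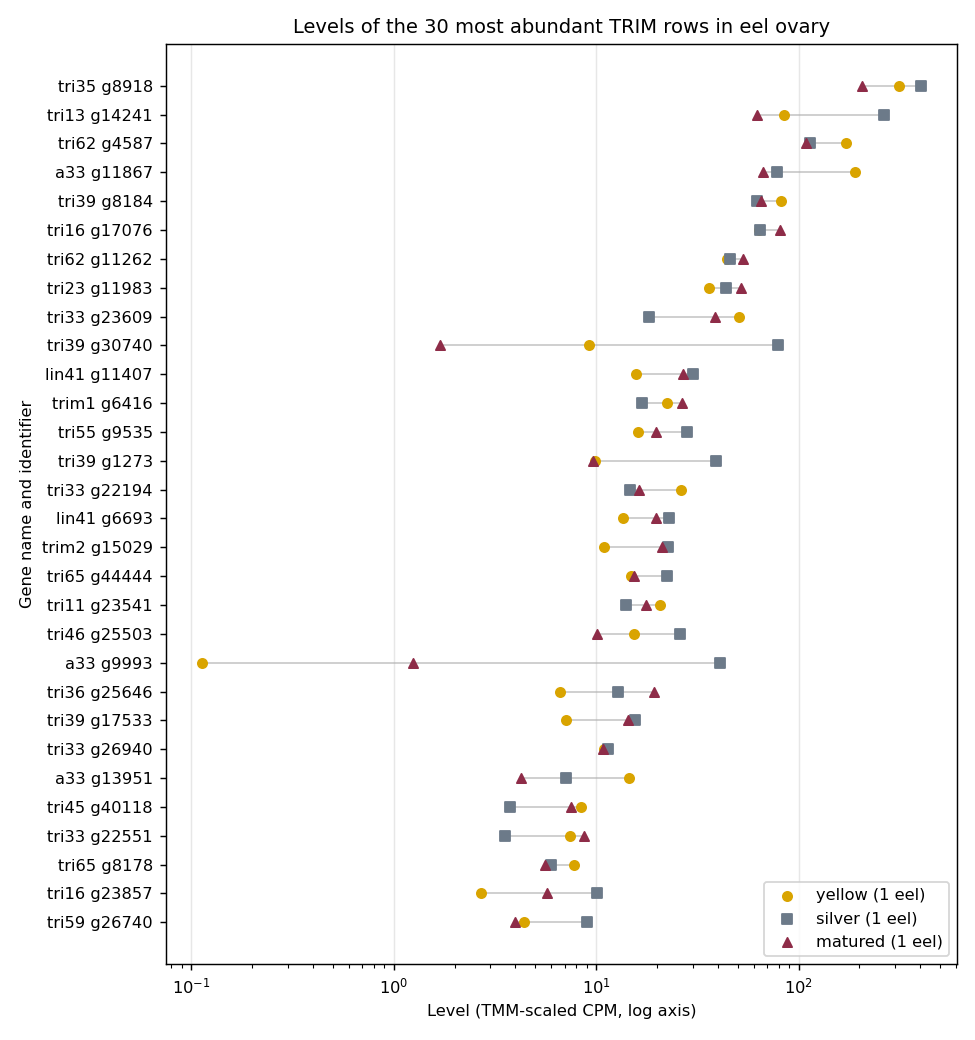
Level (TMM-scaled CPM, log axis) of the 30 TRIM rows with the highest mean, 1 row per line, with 1 point for each library (1 eel each) and a grey line over their range. The row tri35 g8918 lies highest in each library, and the widest lines belong to a33 g9993 and tri39 g30740, whose silver points stand far to the right.

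As a class, TRIM rows were less abundant than other named genes. Their median level was 0.827 CPM against 2.44 CPM over 32673 named genes, and 46.2% of them reached a mean of 1 CPM against 61.7% of named genes. Per kilobase of transcript, the scale on which genes can be compared, the 66 rows had a median of 5.37 CPM per kb against 9.39 in named genes that passed the same filter. Per kilobase tri35 (g8918) again led, with 160, 206 and 104 CPM per kb in the yellow, silver and matured libraries. It was followed by a33 (g11867) at 103, 42.3 and 36.1 CPM per kb and tri13 (g14241) with a mean of 53.6 CPM per kb over the 3 libraries.

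The names rest on weak similarity. The median similarity to the best proteins was 0.570 (a fraction) in TRIM rows against 0.700 in all named genes, and the best match came from human in 46 rows, mouse in 37 and the newt Pleurodeles (a33) in 18. Predicted transcripts ranged from 142 to 9106 bases with a median of 934. Under 500 bases were 46 of them, or 32.2%, near the 31.6% of all named genes. Some rows may therefore be pieces of 1 gene, which was not tested. The current RefSeq annotation of the eel (assembly fAngAng1.pri, used for names alone) lists 2 genes under trim33 symbols, where the deposited table has 9 rows named tri33. It lists 1 gene each for trim71, trim36 and trim32, where the table has 2, 3 and 5 rows. Reads were mostly unique: 3 rows that had reads fell under 80% unique alignments, among them tri29 (g24959) at 77.3%.

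The rows counted at 4-fold were all highest in the silver library. Counted at 4-fold or more after adding 1 CPM to each library, and with at least 10 CPM in the higher one, 2 of the 66 rows were higher in silver than in yellow and 0 were lower. Over all 24571 genes that passed the filter, 1.87% were higher and 0.724% lower by the same rule, or 2.6% in either direction. Between the matured and the silver library 0 rows were higher and 3 lower, where 1.14% and 2.36% of all genes were (3.5% together). Between the matured and the yellow library 0 rows were counted in either direction, where 1.73% of all genes were higher and 1.32% lower (3.06% together). The silver level was at least 4-fold above both others in 2 TRIM rows, against 0.741% of all genes. The 2 rows are 3.03% of the 66 and the 3 rows 4.55%, counts too small to set the family apart from all genes.

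The row a33 (g9993) showed the widest range. Its 3 yellow, 1542 silver and 43 matured reads correspond to 0.113, 40.9 and 1.24 CPM. The silver level was 363-fold above the yellow one (95% interval 124 to 1760.2) and the matured level 32.9-fold below the silver one (24.3 to 45.7). The authors' deposited table gives a fold of 368 for silver over yellow with an adjusted p of 0.000498, from DESeq run without replicates.

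Among the rows counted at 4-fold, tri39 (g30740) was next. With 246, 2992 and 59 reads it stood at 9.25, 79.3 and 1.70 CPM. It was 8.58-fold higher in silver than in yellow (7.53 to 9.81) and 46.5-fold lower in matured than in silver (35.97 to 61.3). In mammals TRIM39 is an E3 ligase linked to control of cell death and the cell cycle. In the authors' deposited table its matured to silver difference has an adjusted DESeq p of 0.0114 and that of a33 (g9993) one of 0.0469. No other TRIM row falls under 0.1 in that comparison, where 93 genes in all do. For silver versus yellow 1 TRIM row and 66 genes in all fall under 0.1, and for matured versus yellow 0 and 128.

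The third row counted, tri13 (g14241), is matched to human TRIM13, a ligase anchored in the membrane of the endoplasmic reticulum that takes part in the removal of misfolded proteins. It stood at 84.6, 265 and 62.1 CPM. It was 3.14-fold higher in silver than in yellow (2.996 to 3.28), short of the 4-fold line, and 4.28-fold lower in matured than in silver (4.08 to 4.48). That count was lost with library totals in place of TMM factors, where its log2 ratio went from -2.08 to -1.75. Just outside the line lay a second tri39 row (g1273), at 9.85, 39.0 and 9.65 CPM, which was 3.96-fold higher in silver than in yellow and 4.04-fold lower in matured than in silver before the added CPM.

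**Figure D2:**
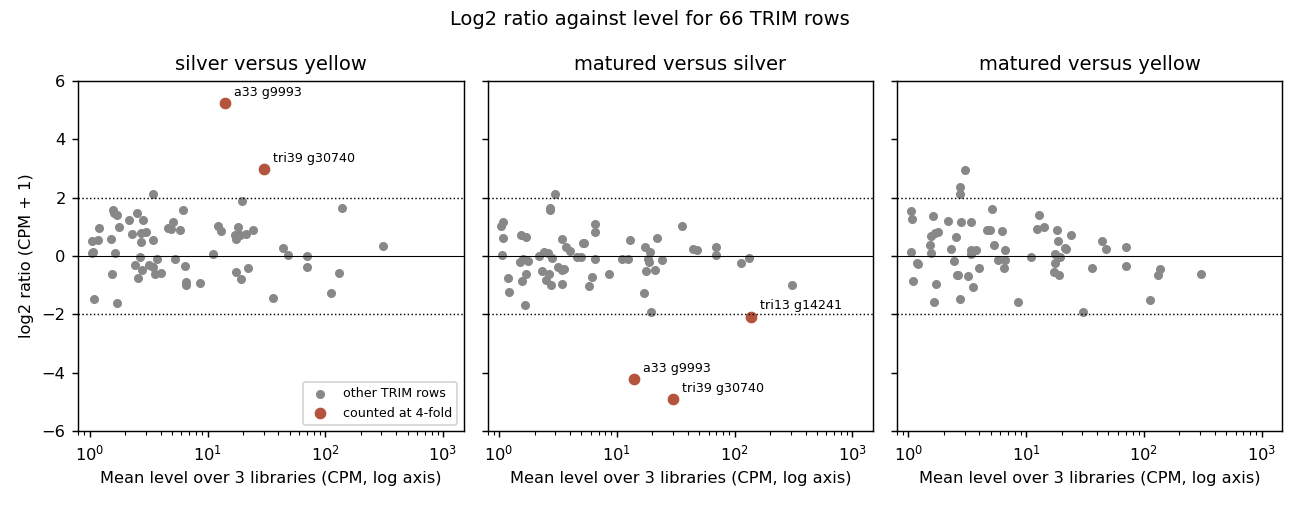
Log2 ratio after adding 1 CPM (y axis) against the mean level over the 3 libraries (CPM, log axis) for the 66 TRIM rows, in each of 3 comparisons, with dotted lines at 4-fold. The rows counted at 4-fold are a33 g9993 and tri39 g30740 in the first panel and these with tri13 g14241 in the second, and 0 rows are counted in the third.

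The middle of the family also lay above zero in the silver to yellow comparison. The median log2 ratio of the 66 rows was 0.50 against 0.01 over all genes. Of these rows 42 lay above zero and 24 below, or 63.6% above against 50.4% of all genes. The silver library held the highest level of 31 of the 66 rows (47.0%), against 33.8% of all genes that passed the filter. A filter on the mean can let a row in through its silver value alone. Among the 64 rows with reads under the filter, silver was highest in 10 (15.6%), against 27.4% of such genes. The excess of silver-high rows therefore holds for the filtered rows only. The TRIM median moved with the processing: it was 0.34 with the trend over transcript length removed and 0.21 with 5 CPM added in place of 1. It was 0.16 on the authors' RPKM values, where the median of all genes was -0.08, and 0.04 with no filter on low values. Rows of at least 500 bases had a median of 0.57 (n = 51) and shorter rows one of -0.10 (n = 15). Many of the shorter rows are named tri33 (g26940, g31122, g45704, g35968, g43083 and g28733), and all of these but g26940 lay below zero. Length and name cannot be told apart in this split. The median over all genes went from -0.26 in the shortest of 10 length bins to 0.17 in the longest. The leukocyte, ovarian somatic and erythrocyte marker sums were also higher in silver than in yellow, while the oocyte sum was lower. Their part in the TRIM median was not tested.

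For matured versus silver the median was -0.08 against -0.03 over all genes, and for matured versus yellow 0.20 against -0.05. With library totals in place of TMM factors these became 0.21 and 0.42, while the medians of all genes moved to 0.26 and 0.18. Values of the matured library carry this shift. The 3 comparisons share libraries and are not independent of each other.

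**Figure D3:**
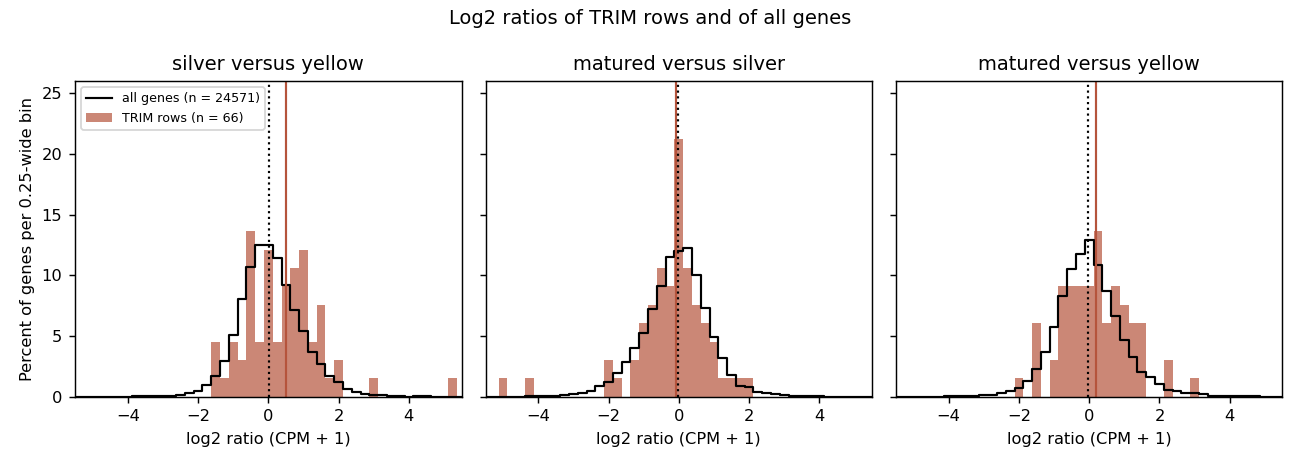
Percent of genes in bins 0.25 wide of the log2 ratio after adding 1 CPM, for the 66 TRIM rows (bars) and all 24571 genes (black line), with medians as a solid line (TRIM) and a dotted line (all genes). The TRIM median stands to the right of the median of all genes for silver versus yellow, at 0.50 against 0.01, and the 2 lie close together for matured versus silver.

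Each row was put in 1 class by its name and domains were not searched for, so a class does not exclude a B30.2 domain in rows of another class. Rows classed by name as B30.2 made up the largest class, with 73 rows, of which 29 passed the filter and 9 had no reads. Their summed level was 981, 1040.2 and 712 CPM, and without tri35 (g8918) it was 667, 636 and 507 CPM. The median log2 ratio was 0.36 for silver versus yellow and -0.09 for matured versus silver. The latter turned to 0.20 with library totals.

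Copies with 1 name went different ways. Of the 18 a33 rows, 4 passed the filter. The most abundant, a33 (g11867), stood at 191, 78.7 and 67.0 CPM and was 2.43-fold lower in silver than in yellow (2.32 to 2.54), while a33 (g9993) had its peak there. The copy a33 (g13951) was highest in the yellow library too, at 14.5, 7.08 and 4.25 CPM. The fourth, a33 (g32627), differed little between libraries, at 3.61, 3.29 and 4.28 CPM.

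The 8 tri39 rows were as varied. The copy tri39 (g8184) stayed between 62.6 and 82.4 CPM, its lowest value being in the silver library. In contrast, tri39 (g8917) was highest in the matured library, at 0.150, 1.03 and 7.80 CPM. It was 7.55-fold higher there than in the silver library (5.38 to 10.8). Against the yellow library, where it had 4 reads, it was 51.9-fold higher (20.0 to 192). It stayed under the 10 CPM required for a count. Its identifier is next to that of tri35 (g8918), which was lowest in the matured library. The table holds 8 such pairs of TRIM rows with consecutive identifiers, among them 2 trim3 rows (g12008 and g12009) and 2 tri16 rows (g14059 and g14060).

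Other abundant B30.2 rows varied by less than 2-fold. The 2 tri62 rows are matched to TRIM62, which in mammals takes part in epithelial polarity. Of them, tri62 (g4587) was at 172, 114 and 109 CPM and tri62 (g11262) at 44.5, 45.7 and 53.4 CPM. The row tri16 (g17076), matched to TRIM16, an estrogen-responsive B-box protein that lacks a RING, was at 64.1, 64.8 and 80.7 CPM. A second tri16 row (g23857) was 3.74-fold higher in silver than in yellow (2.90 to 4.88), from 2.71 to 10.1 CPM.

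The 10 rows named tri25 were low. TRIM25 ubiquitinates the RNA sensor RIG-I in mammals and so starts the interferon response. Its rows summed to 6.84, 10.8 and 12.6 CPM, and 5 of them passed the filter. The highest, tri25 (g14118), stood at 0.639, 1.30 and 6.24 CPM, and was 9.77-fold higher in matured than in yellow (5.96 to 17.1). In contrast, tri25 (g15716), with 61, 96 and 4 reads, was lowest in the matured library, where it was 22.0-fold below silver (8.33 to 82.5). The 2 rows named ro52, the TRIM21 antibody receptor, had at most 1.01 CPM in any library.

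**Figure D4:**
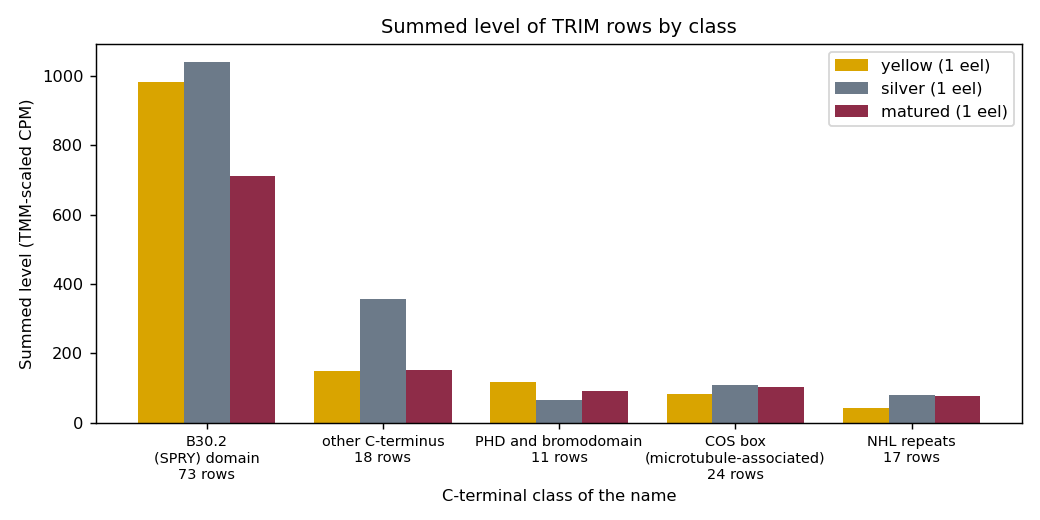
Summed level (TMM-scaled CPM) of the TRIM rows of each C-terminal class in the yellow, silver and matured libraries (1 eel each). The B30.2 class holds most of the signal in each library, the class with other C-terminal parts is highest in the silver library at 357 CPM, and the PHD and bromodomain class is lowest there at 63.6 CPM.

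Rows whose names have other C-terminal parts summed to 148, 357 and 152 CPM over 18 rows, and tri13 gave most of the silver sum. Of the 10 that passed the filter, 9 were higher in silver than in yellow, where 50.4% of all genes were. Their median log2 ratio was 0.94, and the limit of the filter given above applies here too. The 3 tri29 rows among them (g24959, g44763 and g36915), matched to TRIM29, which lacks a RING, had log2 ratios of 2.12, 1.23 and 1.47. They share reads with other rows, with 77.3%, 81.8% and 90.3% unique alignments, so their separate values are uncertain. The row tri23 (g11983), matched to TRIM23, which carries its own GTPase domain, was at 36.3, 43.7 and 52.3 CPM. The row tri59 (g26740), matched to a membrane-anchored member, was at 4.40, 8.99 and 3.96 CPM, and tri37 (g15168), matched to a ligase of peroxisomes and centrosomes, at 2.74, 4.51 and 2.98 CPM. Both were highest in the silver library by less than 3-fold.

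In the PHD and bromodomain class, 9 of the 10 rows that passed the filter are named tri33, and most of these went the other way. The remaining row, tri66 (g7699), was about level at 0.940, 1.09 and 1.13 CPM. TRIM33, or TIF1-gamma, restrains SMAD4 in TGF-beta signalling. Its 9 rows all passed the filter and summed to 116, 62.1 and 88.4 CPM. Of them 8 were lower in silver than in yellow, where 12179 of all 24571 genes were. Their median log2 ratio was -0.57 and ranged from -0.61 to -0.55 over the other scalings. The longest, tri33 (g23609), stood at 51.1, 18.3 and 38.6 CPM and was 2.80-fold lower in silver than in yellow (2.55 to 3.07). It was 2.11-fold higher in matured than in silver (1.93 to 2.32). The second, tri33 (g22194), was at 26.2, 14.7 and 16.2 CPM. The row tri33 (g26940) was level, at 10.9, 11.5 and 10.8 CPM. Of these rows 3 had at least 500 bases (g23609, g22551 and g22194), with log2 ratios of -1.43, -0.89 and -0.79. Over all genes the shortest length bin, up to 202 bases, had a median of -0.26, and tri33 (g45704, g28733 and g35968) fall in it with log2 ratios of -0.61, -0.30 and -0.38. The part of this length trend in the tri33 values was not tested. The 8 transcripts other than g23609 had 145 to 886 bases, so the 9 rows may share genes and are not separate observations. The relatives tif1a (g19890) and tif1b (g14414 and g15817), which are TRIM24 and TRIM28 under their older names and were not caught by the rule, were at 20.0, 10.3 and 15.9 CPM, 11.7, 10.3 and 22.1 CPM, and 19.3, 14.2 and 36.6 CPM. These 3 were lowest in the silver library as well, and the 2 tif1b rows were highest in the matured one.

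The NHL class held 17 rows, of which 4 passed the filter. Its sum was 43.1, 79.9 and 77.9 CPM. The 2 lin41 rows, matched to TRIM71, an RNA-binding repressor of early development, stood at 15.7, 29.96 and 26.9 CPM (g11407) and 13.5, 22.8 and 19.7 CPM (g6693). They were 1.902-fold (1.70 to 2.13) and 1.69-fold (1.49 to 1.91) higher in silver than in yellow. The copy trim2 (g15029), whose mammalian relative is a neuronal ligase, was at 10.9, 22.7 and 21.3 CPM, a similar order. All 4 rows were higher in both later libraries than in the yellow one under each scaling tried. Over all genes that passed the filter, 50.4% were higher in silver and 47.6% in matured than in yellow. The limit of the filter applies here too, since trim3 (g26069) passed only through its matured value. Among NHL rows under the filter, tri32 (g36035) and trim3 (g31976) were lower in silver than in yellow and most others higher, all from few reads. RefSeq lists 1 trim71 gene, so the 2 lin41 rows may not be separate observations. Between silver and matured the sign changed with library totals in lin41 (g11407 and g6693) and trim2 (g15029). The fourth, trim3 (g26069), was highest in the matured library, at 0.150, 0.636 and 2.34 CPM. The 5 rows named tri32 all stayed under the filter.

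Microtubule-associated rows with a COS box summed to 83.4, 108 and 103 CPM over 24 rows, 13 of which passed the filter. The 3 tri36 rows, matched to the ligase of the egg's vegetal cortex in the frog, differed. The longest, tri36 (g25646), stood at 6.65, 12.8 and 19.3 CPM and was 2.90-fold higher in matured than in yellow (2.45 to 3.44). The 343-base row tri36 (g35922) had the reverse order, at 4.44, 2.92 and 0.954 CPM. The 188-base row tri36 (g42921) stood at 0.977, 1.88 and 0.694 CPM. RefSeq lists 1 trim36 gene, so these 3 rows may be parts of 1 gene, which was not tested. The row trim1 (g6416), matched to MID2, was at 22.4, 16.8 and 26.4 CPM, and tri46 (g25503), whose mammalian relative bundles microtubules in axons, at 15.3, 25.9 and 10.1 CPM. The row trim9 (g20662), matched to a brain ligase, was 4.42-fold higher in matured than in silver (3.27 to 6.07) at 6.33 CPM. Against yellow the same row was 15.3-fold higher in matured (8.39 to 31.1). Among names of muscle RING ligases, the 3 rows named tri63 summed to at most 2.73 CPM in any library, while tri55 (g9535) stood at 16.05, 28.0 and 19.7 CPM.

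**Figure D5:**
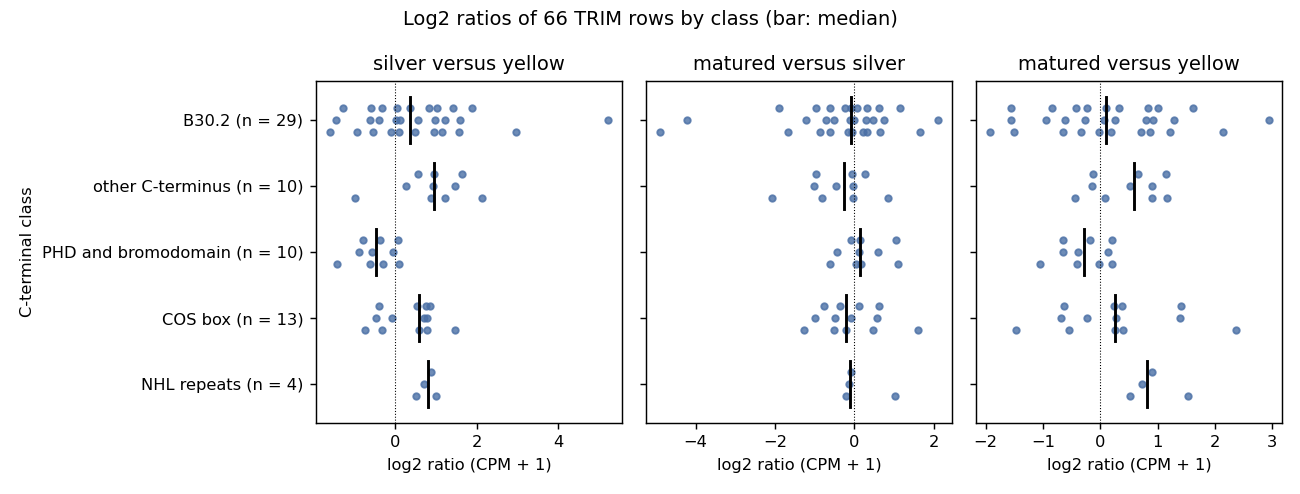
Log2 ratio after adding 1 CPM for each of the 66 TRIM rows that passed the filter (points, spread vertically for visibility), grouped by C-terminal class, with the class median as a black bar, in 3 comparisons whose x axes differ in range. For silver versus yellow the PHD and bromodomain rows, 9 of 10 named tri33, have a median of -0.47 and the other 4 classes medians from 0.36 to 0.94.

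With a 2-fold line in place of 4-fold, 6 TRIM rows were higher and 2 lower in silver than in yellow, where 9.43% and 5.64% of all genes were (15.1% together). Those higher were tri13 (g14241), 3 tri39 rows (g30740, g1273 and g17533), a33 (g9993) and tri16 (g23857). Those lower were a33 (g11867) and tri33 (g23609). Between matured and silver 1 row was higher, tri33 (g23609), and 5 were lower, where 4.93% and 11.1% of all genes were (16.1% together). Between matured and yellow 1 row was higher, tri36 (g25646), and 2 were lower, both named a33 (g11867 and g13951), where 5.8% and 7.87% of all genes were (13.7% together). In 4 rows, or 6.06%, the silver level was at least 2-fold above both others, against 5.66% of all genes. The shares of the 66 rows were below those of all genes in each of the 6 counts between a pair of libraries. A count needs at least 10 CPM in the higher library, however, and TRIM rows were less abundant. A mean of at least 10 CPM was reached by 36.4% of the 66 rows and 46.4% of all genes that passed the filter. The part of level in these shares was not tested, and counts of 1 to 6 rows do not set the family apart.

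The rows of low level leaned towards the matured library. Of the 64 rows with reads but a mean under 1 CPM, 39 (60.9%) were highest in the matured library, 15 in the yellow and 10 in the silver. Over all 15115 genes of that kind the shares were 43.2%, 29.4% and 27.4%. Their summed level was 14.8, 15.3 and 29.0 CPM, from 395, 578 and 1002 reads. The leukocyte, smooth muscle and ovarian somatic marker sums were also highest in the matured library. Their part in this lean, and in the matured-high rows tri39 (g8917), tri25 (g14118) and trim9 (g20662), was not tested. Of the 14 rows without reads in exactly 1 library, 10 lacked them in the yellow library, and none had more than 15 reads in any library. The yellow library was the shallowest, and over all genes it also had the fewest with reads, 78.8% against 81.2% in silver and 79.7% in matured. Of the 143 TRIM rows, 79.7%, 86.0% and 83.2% had reads in the yellow, silver and matured libraries. A count of 0 allows up to 3 reads, or 0.113, 0.0795 and 0.0867 CPM in the yellow, silver and matured libraries.

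Antiviral signalling genes, the pathway in which TRIM25 and several B30.2 members act, gave 64 tested rows from 40 matched names. Between silver and yellow 2 were at least 4-fold higher and 2 lower, where 1.87% and 0.724% of all genes were. Between matured and silver 2 were higher and 4 lower (1.14% and 2.36% of all genes), and between matured and yellow 3 and 0 (1.73% and 1.32%). The median log2 ratios in these comparisons, 0.16, 0.15 and 0.19, lay beside 0.01, -0.03 and -0.05 over all genes. The suppressor of cytokine signalling socs1 (g5447) had the same silver peak as the 3 TRIM rows above, at 10.4, 91.6 and 13.3 CPM. So did samh1 (g28115), matched to an enzyme that breaks down dNTPs and so limits viral replication in mammals, with 0, 754 and 0 reads, and the interferon-induced ifi44 (g13181), at 47.2, 130.2 and 19.8 CPM. The reverse held for if44l (g26148), at 95.2, 6.50 and 106 CPM, and for traf3 (g26524), an adaptor of the RNA sensors, at 27.4, 5.09 and 20.1 CPM. The endosomal RNA receptor tlr7 (g12765) was highest in the matured library, at 4.59, 8.54 and 65.1 CPM.

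Ubiquitin and SUMO enzymes, with which TRIM ligases work, gave 80 tested rows from 41 matched names. Between silver and yellow 2 were at least 4-fold higher and 1 lower, beside 1.87% and 0.724% of all genes. Between matured and silver 0 were higher and 7 lower, beside 1.14% and 2.36%, and between matured and yellow 0 and 1, beside 1.73% and 1.32%. The list's median log2 ratios were -0.13, -0.13 and -0.16. The E2 enzyme ube2w had a silver peak in both of its rows, at 24.7, 304 and 23.5 CPM (g6069) and 6.35, 33.01 and 7.25 CPM (g4096). The modifier sumo2 (g17307) stood at 182, 485 and 55.9 CPM, and was 8.68-fold lower in matured than in silver (8.28 to 9.10). The E2 partner ub2v1 (g6931), which helps build the ubiquitin chains used in innate signalling, had its lowest level in silver, at 147, 33.1 and 94.5 CPM.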

How the data were processed

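Ovary mRNA libraries of 3 eels, 1 per stage, were made from 10 micrograms of total RNA each, per the labels' protocols. Per the file headers, genes were predicted with Augustus, named with Blast2GO and counted with CLC bio software. DESeq, HTSeq, SAMtools 0.1.18, TopHat2 2.0.5 and CASAVA stand, with no role, in the submitters' processing notes. A build was not given in the sources used here. The counts deposited by the authors are corrected total reads, with reads of several alignments shared out, beside unique reads. The RPKM values are the authors' per-length values. The fold (a linear ratio), the log2 fold and the p-values deposited by the authors come from DESeq, which per the file headers estimated variance over the 3 libraries together. The similarity fraction and transcript lengths are also the authors'. The line of column totals and 1 blank line were left out.

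Counts were scaled with TMM factors (edgeR 4.0.16 in R 4.3.3) of 0.957, 0.910 and 1.15. Ratios used 1 added CPM over genes with a mean of at least 1 CPM (24571 of 45974). Fold intervals are exact conditional binomial at 95% without the addition. The calling steps were tested on simulated data. Alternatives were DESeq2 1.42.0 size factors, library totals, unique reads, pseudocounts of 0.1 and 5 CPM, other filters and thresholds, the RPKM values and narrower member rules. Removing a trend over 10 bins of transcript length, requiring 500 bases and leaving the top row out of the sum were added after the data were seen. Members and gene lists were chosen with earlier results of these data known. Rows named in the text were drawn from those counted at 4-fold, the 10 most abundant by CPM and by CPM per kb, fixed TRIM numbers and rows without reads in exactly 1 library. Up to 4 counted genes per comparison were drawn from the antiviral list and from the ubiquitin and SUMO list. Of the marker lists only ptprc was named, outside this rule. Other rows were chosen after their values were seen. They are the 2-fold rows, the rows near the 4-fold line or under 10 CPM, and other copies of the same names (a33, tri16, tri29, ro52, tri63). They also include tri46, tri55, tri66, trim9, trim1 and the tif1 rows. Other steps used scipy 1.17.1, pandas 2.3.3, numpy 2.4.6, matplotlib 3.10.9 and Python 3.11.15.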

Additional observations from a re-analysis of the deposited data

How the results depend on the processing

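No paired analysis was possible because each stage has 1 eel. The counts of TRIM rows at 4-fold stayed within 1.5 times under each change of scaling, reads, filter on the mean level, pseudocount, RPKM values and member rule, but not with other thresholds. A 2-fold line gave 6 higher and 2 lower for silver versus yellow, 1 and 5 for matured versus silver, and 1 and 2 for matured versus yellow, against 2 and 0, 0 and 3, and 0 and 0. With no minimum of 10 CPM in the higher library 3 rows were higher for silver versus yellow, 1 for matured versus silver and 3 for matured versus yellow. With 0.1 CPM added in place of 1, 4 rows were lower for matured versus silver, and with library totals, the RPKM values or the length trend removed, 2.

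The median log2 ratio for matured versus silver went from -0.08 to 0.21 with library totals and 0.18 with RPKM values, and for matured versus yellow from 0.20 to 0.42 and 0.44. These follow the shift of all genes under that scaling, since the all-gene medians moved from -0.03 to 0.26 and from -0.05 to 0.18. For silver versus yellow the median ran from 0.04 to 0.65 over the alternatives. With library totals 15, 6 and 2 of the 66 rows changed sign (matured versus silver, matured versus yellow, silver versus yellow), and with unique reads 1, 1 and 0.

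The family sums (yellow, silver, matured) were 1314, 1501 and 1303 CPM with library totals, 1399, 1676 and 1151 with unique reads, 1342, 1595 and 1086 for members by name alone, and 1059, 1244 and 930.1 without tri35 (g8918). With DESeq2 size factors the silver and matured sums were 1677 and 1115. The silver sum was the highest in each of these. Depth limits the 64 rows under 1 CPM, and with 1 eel per stage no setting measures the spread between animals.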

Other observations

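A pair of rows outside the family rule carry fish TRIM descriptions, and were chosen after their values were seen. The row described as a fish virus induced TRIM protein (g43243, 376 bases) had 10, 209 and 122 reads, or 0.376, 5.54 and 3.53 CPM in the yellow, silver and matured libraries. The row described as a fintrim family protein (g36408, 153 bases) had 1, 25 and 16 reads. Both were lowest in the yellow library, and both are short transcripts without a gene name in the deposited table.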
